A study of Arabidopsis thaliana with 12 samples.

Results

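Transcript levels in leaves of the Arabidopsis thaliana mutant tpt-2 were compared between 18 h and 9 h of strong light. The comparison covers 3 libraries at 18 h and 3 at 9 h, 6 of the 12 libraries of the study. A gene was included when its mean over these 6 libraries was at least 1 FPKM (fragments per kilobase of transcript and per 1e6 fragments), which gave 17682 of the 32833 genes measured. Of these, 17561 were nuclear, 105 chloroplast-encoded and 16 mitochondrion-encoded. At the edge of this limit, AT2G22790 averaged 1.0 FPKM and was included, and AT1G04047 averaged 0.999 FPKM and was not. Plants of every group were 21 d old, had been grown on soil under short days with 10 h of light, and were transferred to 500 µmol photons m-2 s-1 when a night ended. The groups used here are tpt-2 after 18 h, tpt-2 after 9 h, and, where stated, the wild-type accession Col-0 after 18 h and 9 h, with 3 biological replicates each. After 9 h the plants were still inside their usual light period, and after 18 h the light had run far past its usual end. The length of the light treatment and the time of day therefore change together in this comparison and cannot be told apart.

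TPT is the triose phosphate/phosphate translocator of the inner chloroplast envelope. By day it exports the triose phosphates made by the Calvin cycle in exchange for phosphate, and they are built into sucrose in the cytosol. In plants without it, carbon stays in the plastid and is stored as starch, from which sugars are exported. Sugars feed back on the transcription of many leaf genes, among them those of anthocyanin synthesis, which rise with sugar and strong light, and starvation genes, which sugar represses. A large share of leaf genes also follows the circadian clock, in which morning-phased and evening-phased transcription factors repress each other.

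TPT transcript was far lower in every tpt-2 library than in every Col-0 library, so the genotype labels held for all of them. TPT (AT5G46110) had 2.76, 2.86 and 3.15 FPKM at 18 h, against 2.52, 2.94 and 3.85 FPKM at 9 h in tpt-2, while Col-0 had 465, 436 and 406 FPKM at 18 h, against 448, 328 and 405 FPKM at 9 h. Its level in tpt-2 did not differ between the times beyond the replicate spread (log2 fold change -0.052, SE 0.13, adjusted p = 0.817, limma). The depth, recovered from the steps between low values, was 12.3 M to 14.3 M fragments per tpt-2 library (M, 1e6), so that 3 fragments correspond to 0.210 to 0.244 fragments per 1e6. None of the 15 pairs of tpt-2 libraries held identical values. The correlation over genes was 0.971 to 0.986 within a time and 0.938 to 0.959 between the times. Replicate 3 at 18 h stood apart from its group (r of 0.977 and 0.971 with the other replicates), and its correlation with the 9 h libraries, 0.949 to 0.959, was the highest of the 18 h libraries. Replicate 3 at 9 h stood apart in its chloroplast-encoded share, 3.22% of all FPKM, where the other 5 tpt-2 libraries had 0.342% to 0.672%. In every Col-0 library this share was lower, at 0.0507% to 0.0721%. Root, flower and seed markers were at or near 0 in tpt-2 (at most 0.980 FPKM summed over a list), with AP1 and OLEO1 at 0 in all 6 tpt-2 libraries. Guard cell markers summed to 30.8 to 34.8 FPKM at 18 h and 31.1 to 34.2 FPKM at 9 h, and the trichome marker GL2 had 6.32 to 8.73 FPKM at 18 h and 5.78 to 6.09 FPKM at 9 h. Within the guard cell list GORK had 1.57, 2.17 and 1.7 FPKM at 18 h, against 2.67, 2.74 and 2.57 FPKM at 9 h. The times overlapped for FAMA, MYB60 and KAT1. Of the mesophyll markers RCA was higher and LHCB3 lower in every 18 h library, while RBCS1A overlapped. Of the companion cell markers AHA3 was higher and SUC2 lower in every 18 h library.

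Between 18 h and 9 h, 4122 of the 17682 genes changed in tpt-2 (23.3%, limma, adjusted p under 0.05). Of these, 2117 were higher (12%) and 2005 lower (11.3%) at 18 h. A change of at least 2-fold was reached by 843 of them (4.77%), 496 higher (2.81%) and 347 lower (1.96%). The median log2 fold change of all tested genes was -0.0042, and the median size of the called changes was 0.574. The 3 values at each time did not overlap in 37.9% of the genes. Without replicate 3 at 18 h, the library that stood apart, 4035 genes were called, and without replicate 3 at 9 h 3176. The genes are described below in 22 lists, each by its count of called members and its median log2 fold change. Each count is to be read beside the 12% higher and 11.3% lower of all tested genes. Numbers in parentheses after a gene's FPKM values are its log2 fold change at 18 h over 9 h, the standard error (SE) of that change and limma's adjusted p, and rises and falls are sizes of log2 fold changes. With leaves sequenced as a whole, fewer cells of a type and less RNA per cell cannot be told apart for any gene described here.

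**Figure D1:**
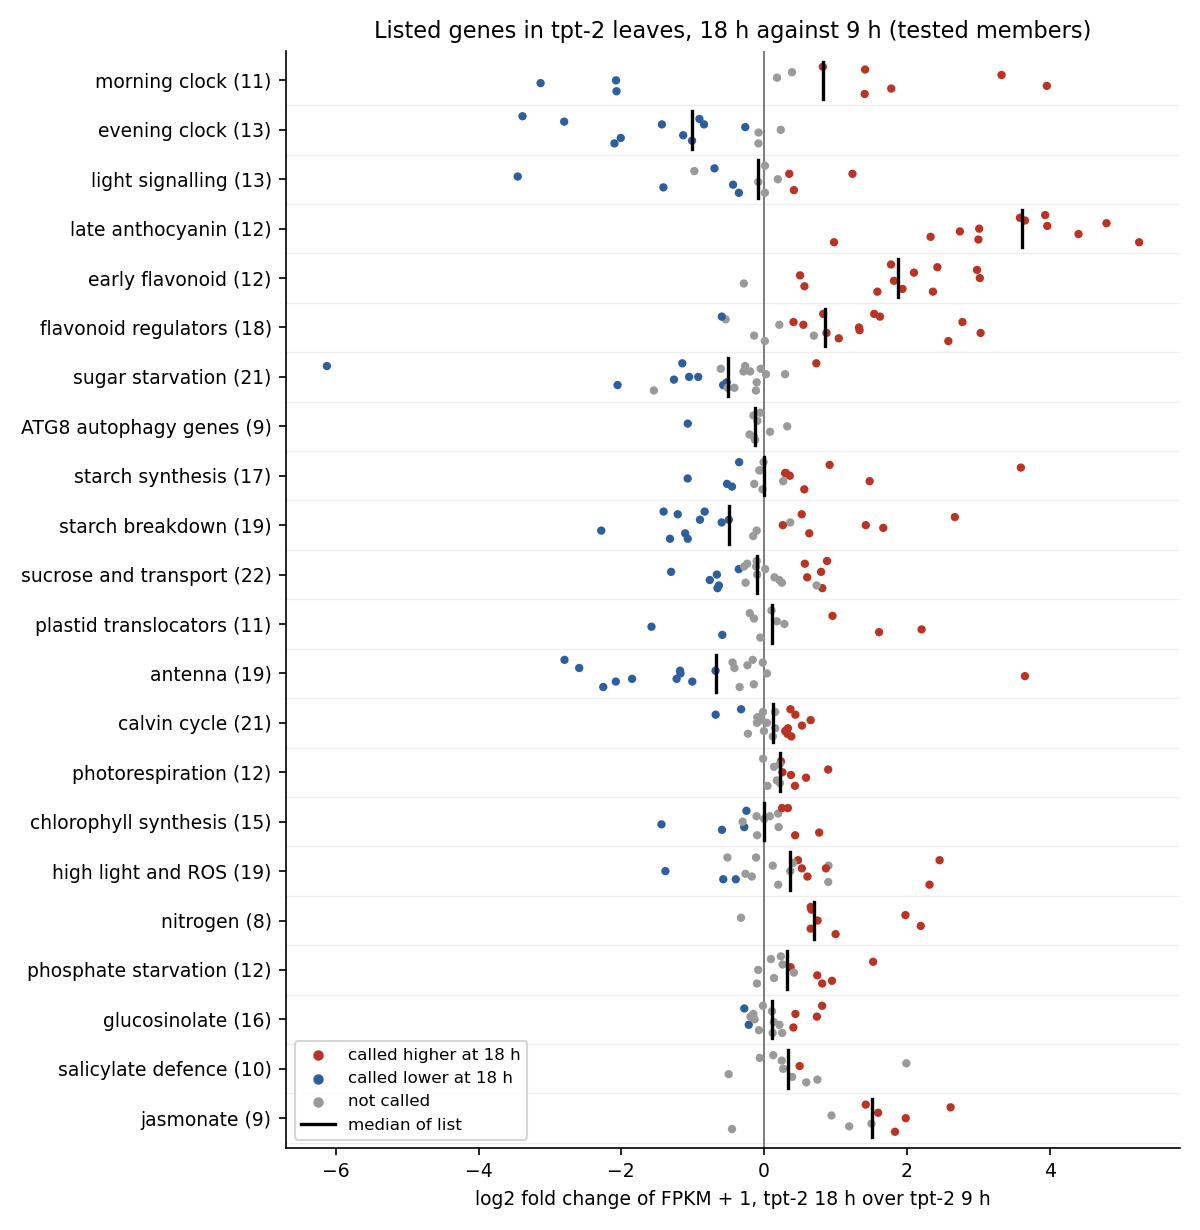
Each point is a tested gene of a list (rows, with the number tested), placed by its log2 fold change of FPKM + 1 at 18 h over 9 h in tpt-2, and bars mark list medians. The late anthocyanin list lies entirely to the right, between 0.98 and 5.26, and the evening clock list mostly to the left, with a median of -1.01.

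Most core genes of the circadian clock changed between the times, with dawn factors higher and evening factors lower at 18 h. Of 11 tested morning clock genes, 6 were higher and 3 lower at 18 h, and of 13 evening clock genes 10 were lower and 0 higher (medians 0.82 and -1.01). Of all tested genes, 12% were higher and 11.3% lower. LHY (AT1G01060), a MYB repressor that peaks around dawn, had 11.6, 12.2 and 7.95 FPKM at 18 h, against 0.118, 0.236 and 0.0569 FPKM at 9 h. It was thus close to undetected in all 9 h libraries, where it rested on 15 fragments in all, and clearly present in all 18 h libraries (log2 fold change 3.33, SE 0.16, adjusted p = 1.63e-07). RVE8 (AT3G09600), a related MYB factor that activates evening genes, had 24.6, 26.2 and 17.1 FPKM at 18 h, against 0.26, 1.12 and 0.251 FPKM at 9 h, a log2 fold change of 3.96 (SE 0.20, adjusted p = 2.34e-07). Its groups were far apart, with the lowest level at 18 h in replicate 3. CCA1, the partner of LHY, had 3.56, 4.25 and 2.82 FPKM at 18 h, against 0.551, 1.62 and 0.199 FPKM at 9 h, and its log2 fold change was 1.41 (SE 0.25, adjusted p = 0.00159). The related factors RVE1, RVE2 and RVE4 also rose (log2 fold changes 1.78, 1.42 and 0.82), while RVE6 did not pass the test (0.18, adjusted p = 0.397).

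The remaining called members of the morning list moved the other way. PRR7 (AT5G02810), a pseudo-response regulator that represses CCA1 and LHY by day, had 2.24, 5.14 and 5.24 FPKM at 18 h, against 45.1, 44.6 and 38.6 FPKM at 9 h (log2 fold change -3.13, SE 0.24, adjusted p = 3.41e-06). All 18 h libraries were below all 9 h libraries. LNK1, a coactivator that works with RVE8, had 2.95, 5.97 and 5.13 FPKM at 18 h, against 24.7, 24.1 and 18.3 FPKM at 9 h, and RVE7, another MYB-like factor, fell by 2.07 on the log2 scale. LNK2 did not pass the test (0.39, adjusted p = 0.356).

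Evening genes were lower at 18 h in most cases. GI (AT1G22770), which with FKF1 and ZTL controls protein turnover in the clock and in flowering, had 3.58, 4.83 and 4.63 FPKM at 18 h, against 50.7, 52.1 and 61.1 FPKM at 9 h, a log2 fold change of -3.38 (SE 0.18, adjusted p = 2.69e-07). FKF1 (AT1G68050), a blue-light receptor and F-box protein, had 4.66, 6.25 and 7.14 FPKM at 18 h, against 43.3, 46.4 and 52.6 FPKM at 9 h (-2.8, SE 0.16, adjusted p = 3.69e-07). PRR5 (AT5G24470), a repressor of the same family as PRR7, had 7.91, 8.77 and 6.54 FPKM at 18 h, against 37, 40.0 and 32 FPKM at 9 h (-2.1, SE 0.11, adjusted p = 2.97e-07). In these 3 genes the values of both times were separated by more than the whole range within either time. TOC1 (AT5G61380), the evening member of that family, had 32.2, 32.7 and 33.7 FPKM at 18 h, against 71.6, 72 and 76.3 FPKM at 9 h, with a narrow range within either time (-1.13, SE 0.077, adjusted p = 1.52e-06). Of the evening complex, which represses growth genes in the early night, ELF4 had 49.6, 70.2 and 62.7 FPKM at 18 h, against 215, 216 and 318 FPKM at 9 h and LUX had 24.4, 26.1 and 29.9 FPKM at 18 h, against 52.5, 51 and 49.1 FPKM at 9 h. ELF4 fell by 2.01 and LUX by 0.91 on the log2 scale, and ELF3 by 0.26 (adjusted p = 0.026). PRR3, CHE and CDF1 also fell, whereas ZTL, LKP2 and BOA did not pass the test (log2 fold changes -0.076, -0.078 and 0.23). Genes on the other strand overlap 17.8% of the exonic sequence of LUX and 45.9% of that of BOA.

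GRP7 (AT2G21660), a clock-driven RNA-binding protein, had 554, 642 and 749 FPKM at 18 h, against 6085, 5437 and 6714 FPKM at 9 h (log2 fold change -3.23, SE 0.14, adjusted p = 1.03e-07). Among 13 tested light-signalling genes, 3 were higher and 5 lower (median -0.08). PIF4 (AT2G43010), a bHLH factor that drives elongation growth, had 2.19, 4.84 and 4.38 FPKM at 18 h, against 57.2, 52.7 and 40.9 FPKM at 9 h (-3.45, SE 0.29, adjusted p = 7.17e-06), and its relatives PIF5 and PIF7 fell by 1.41 and 0.69. PIF1 and PHYA were also lower, by 0.43 and 0.35. Without replicate 1 at 9 h the count of lower genes was 3, and the list median was -0.17, -0.036 and -0.19 without replicate 1, 2 and 3 at 9 h. HYH, a bZIP factor close to HY5, had 61.3, 64.8 and 50.7 FPKM at 18 h, against 17, 27.9 and 30.1 FPKM at 9 h (1.24, SE 0.23, adjusted p = 0.00252), so its groups did not overlap. HY5 itself had 22.1, 23.7 and 22.8 FPKM at 18 h, against 17.4, 22.2 and 30.0 FPKM at 9 h and did not pass the test. SPA1 rose by 0.42, and PHYB by 0.35, a call of PHYB that was lost without replicate 1 or 2 at 18 h (adjusted p up to 0.0534).

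**Figure D2:**
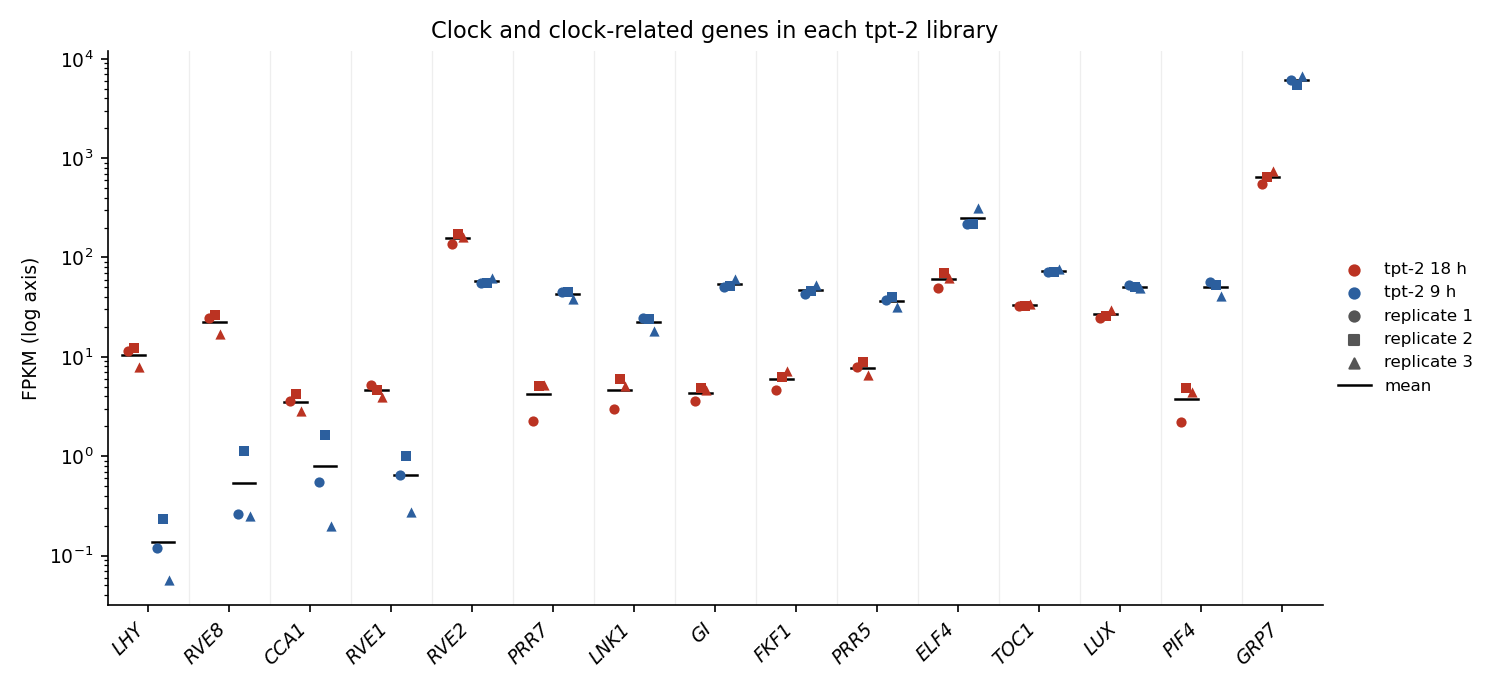
FPKM (log axis) of clock and clock-related genes in each tpt-2 library, with 18 h (red) left of 9 h (blue), a marker shape per replicate and bars at the means. LHY, RVE8, CCA1, RVE1 and RVE2 are higher at 18 h, and the genes from PRR7 to GRP7 are lower at 18 h, in each case without overlap of the libraries.

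Evening-phased promoters often carry the evening element, AAAATATCT, which CCA1, LHY and the RVE factors bind. Its letters, or their reverse complement AGATATTTT, were searched in the 250 bases before each annotated gene start, together with the G-box CACGTG and a CCA1-binding site, AAAAATCT (reverse complement AGATTTTT), each on both strands. The evening element occurred in 2.23% of all 32546 nuclear windows and in 2.55% of those of tested genes. It occurred in 131 of the 1996 windows of nuclear genes called lower at 18 h (6.56%), in 1.75% of those called higher and in 2.08% of those not called. Among genes at least 2-fold lower the share was 44 of 338 (13.0%), and among genes at least 2-fold higher 1.61%. The G-box occurred in 5.90% of all windows and in 7.40% of those of tested genes. Its share was 10.8% in genes called higher, 7.01% in those called lower and 6.92% in those not called. Among genes at least 2-fold higher it was 13.5%, and among genes at least 2-fold lower 8.58%. The CCA1-binding site occurred in 6.38% of all windows and in 6.81% of those of tested genes. Its share was 6.71% in genes called higher, 8.02% in those called lower and 6.64% in those not called. None of the 3 motifs contains another. In the evening clock list 5 of 13 windows held an evening element, and in the morning clock list 5 of 11 held a G-box. A G-box was also held by 6 of 17 starch synthesis, 6 of 19 starch breakdown and 3 of 12 late anthocyanin windows. The nitrogen list had it in 0 of 8 windows and the phosphate starvation list in 0 of 12. The windows of 4 genes that fell and of DFR, an anthocyanin gene that rose, show these matches. They are given 5′ to 3′ along the gene's strand from RefSeq TAIR10.1, ending at the base before the annotated start, with the motif matches in capitals.
GRP7 (chr2:9266558-9266807, minus strand): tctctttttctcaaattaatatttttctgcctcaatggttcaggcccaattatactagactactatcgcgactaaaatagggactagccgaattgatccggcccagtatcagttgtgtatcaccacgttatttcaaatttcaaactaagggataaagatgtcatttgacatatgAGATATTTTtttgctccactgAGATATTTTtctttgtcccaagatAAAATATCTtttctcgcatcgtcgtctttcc
PRR5 (chr5:8358547-8358796, minus strand): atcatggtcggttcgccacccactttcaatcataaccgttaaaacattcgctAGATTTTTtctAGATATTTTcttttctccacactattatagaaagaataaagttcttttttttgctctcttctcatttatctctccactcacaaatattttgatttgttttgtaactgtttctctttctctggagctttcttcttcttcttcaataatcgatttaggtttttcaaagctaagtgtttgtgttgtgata
TOC1 (chr5:24674713-24674962, plus strand): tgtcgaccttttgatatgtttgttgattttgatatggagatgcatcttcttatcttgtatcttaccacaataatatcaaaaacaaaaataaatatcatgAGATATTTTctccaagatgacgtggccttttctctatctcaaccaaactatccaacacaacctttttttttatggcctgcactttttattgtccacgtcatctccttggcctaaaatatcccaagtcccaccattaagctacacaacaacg
FKF1 (chr1:25508389-25508638, plus strand): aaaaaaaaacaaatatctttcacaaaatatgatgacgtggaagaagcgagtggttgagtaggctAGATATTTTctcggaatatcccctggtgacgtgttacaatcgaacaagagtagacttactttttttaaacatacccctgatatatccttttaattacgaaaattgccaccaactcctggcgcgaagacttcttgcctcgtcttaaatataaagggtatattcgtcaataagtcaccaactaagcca
DFR (chr5:17166033-17166282, minus strand): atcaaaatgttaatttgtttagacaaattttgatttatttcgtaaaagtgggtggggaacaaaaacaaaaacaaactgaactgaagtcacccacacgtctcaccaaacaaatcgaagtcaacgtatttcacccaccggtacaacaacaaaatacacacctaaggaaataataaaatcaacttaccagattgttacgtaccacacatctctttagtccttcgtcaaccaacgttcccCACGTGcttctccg
GRP7 holds 3 evening elements in its last 76 bases before the start. PRR5 holds a CCA1-binding site and an evening element 198 and 187 bases before the start, and TOC1 and FKF1 hold 1 evening element each, 151 and 186 bases before it. DFR holds no evening element and a G-box 14 bases before its start. A match describes the letters of these windows and was not tested as a binding site.

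Anthocyanin genes rose at 18 h. All 12 late anthocyanin genes were higher at 18 h (median 3.62), as were 11 of 12 tested early flavonoid genes (median 1.88). F3'H (AT5G07990), which adds the second hydroxyl group of the cyanidin ring, had 133, 129 and 99.2 FPKM at 18 h, against 1.47, 1.38 and 4.34 FPKM at 9 h (log2 fold change 5.26, SE 0.27, adjusted p = 2.34e-07). DFR (AT5G42800), the first enzyme that commits a dihydroflavonol to anthocyanin, had 254, 227 and 219 FPKM at 18 h, against 4.25, 8.24 and 11.3 FPKM at 9 h (4.8, SE 0.22, adjusted p = 1.30e-07). LDOX (AT4G22880), which makes the coloured anthocyanidin, had 265, 226 and 210.3 FPKM at 18 h, against 6.96, 10.7 and 13.4 FPKM at 9 h (4.41, SE 0.17, adjusted p = 8.68e-08). In all 3 genes the lowest 18 h library was far above the highest 9 h library, and replicate 3 was the lowest at 18 h and the highest at 9 h.

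The enzymes that decorate anthocyanins rose as well. UGT75C1, the 5-O-glucosyltransferase, had 98.9, 84.5 and 79.1 FPKM at 18 h, against 2.87, 6.37 and 5.26 FPKM at 9 h, and UF3GT, the xylosyltransferase, had 99.8, 93.6 and 74.7 FPKM at 18 h, against 2.58, 7.76 and 5.39 FPKM at 9 h (log2 fold changes 3.97 and 3.94). Exons of 2 genes on the other strand overlap 27.1% of the exonic sequence of UGT75C1, and how the counting used strand is not stated. The malonyltransferase 5MAT rose by 3.59, the acyltransferases 3AT1 and 3AT2 by 3.01 and 3.0, and GSTF12, needed to bring anthocyanins into the vacuole, by 3.66. The smallest rise of the list was that of BGLU10 (0.98, adjusted p = 0.00633). Of the early steps, which also feed flavonols, chalcone synthase CHS (AT5G13930) had 1330.3, 1156 and 1031 FPKM at 18 h, against 90.6, 135 and 237 FPKM at 9 h (log2 fold change 3.02, SE 0.26, adjusted p = 8.12e-06). Its libraries did not overlap, and replicate 3 at 9 h was the highest of its group. CHIL, an enhancer of that step, rose by 2.98, and 4CL3, the 4-coumarate:CoA ligase of the flavonoid branch, by 2.43. PAL1 and PAL2, which open the phenylpropanoid pathway, rose by 2.37 and 2.1, and the flavonol synthase FLS1 by 1.82. PAL4 was the tested early gene not called (-0.28, adjusted p = 0.153).

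Among 18 tested flavonoid regulators, 12 were higher and 1 lower (median 0.85). TT8 (AT4G09820), the bHLH partner of the anthocyanin MYB factors, had 14.3, 12.9 and 8.85 FPKM at 18 h, against 0.275, 0.943 and 0.531 FPKM at 9 h (log2 fold change 3.03, SE 0.18, adjusted p = 4.79e-07). PAP1 (AT1G56650), the main anthocyanin MYB activator, had 115, 101 and 70.2 FPKM at 18 h, against 14.4, 18.8 and 11.9 FPKM at 9 h (2.58, SE 0.19, adjusted p = 2.43e-06). PAP2, its near copy, had 17.9, 8.55 and 4.43 FPKM at 18 h, against 0.629, 0.21 and 0.531 FPKM at 9 h (2.78, SE 0.35, adjusted p = 1.32e-04), with a wide spread at 18 h that did not reach the 9 h values. Since PAP1, PAP2, MYB113 and MYB114 are related copies, reads can be split among them. MYB113 rested on 56 fragments at 18 h and 3 at 9 h and MYB114 on 28 and 2, both under the 1 FPKM limit. The flavonol activators MYB11, MYB12 and MYB111 rose by 1.63, 1.33 and 1.05. Repressors rose as well, with MYB4 at 0.83, LBD39 at 0.88 and the single-repeat MYB factor CPC at 1.34, while MYBL2 did not pass the test (-0.54, adjusted p = 0.103). SPL9, which hinders the MYB-bHLH complex, was the lower one, at 5.76, 4.11 and 5.99 FPKM at 18 h, against 7.13, 8.14 and 10.1 FPKM at 9 h (-0.59, SE 0.14, adjusted p = 0.0107). Without replicate 3 at 9 h, 2 regulators were lower.

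**Figure D3:**
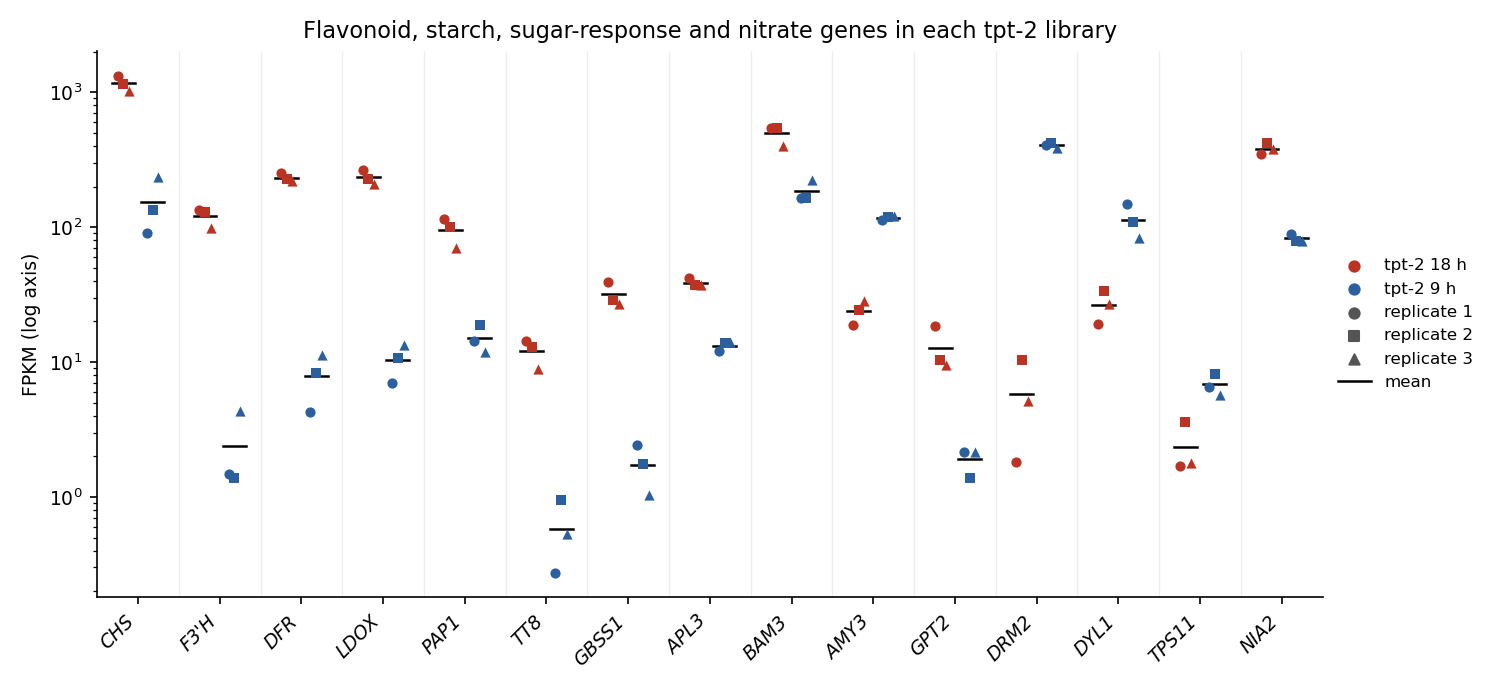
FPKM (log axis) of flavonoid, starch, translocator, sugar-starvation and nitrate genes in each tpt-2 library, with 18 h (red) left of 9 h (blue), a marker shape per replicate and bars at the means. F3'H and DFR lie far higher at 18 h, DRM2 far lower, with 1.82 to 10.3 FPKM at 18 h and 384 to 419 FPKM at 9 h.

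Genes that sugar starvation induces were lower at 18 h in part. Of 21 tested, 8 were lower and 1 higher (median -0.51), and 1 of 9 ATG8 genes, which encode the autophagosome protein ATG8, was lower, a share close to the 11.3% of all tested genes. DRM2 (AT2G33830), a dormancy-associated gene, had 1.82, 10.3 and 5.11 FPKM at 18 h, against 409, 419 and 384 FPKM at 9 h, a log2 fold change of -6.12 (SE 0.39, adjusted p = 9.39e-07). This was the largest fall of all tested genes. Its relative DYL1 (AT1G28330) had 19.3, 33.4 and 26.9 FPKM at 18 h, against 148, 109 and 83.7 FPKM at 9 h (-2.05, SE 0.23, adjusted p = 6.87e-05). TPS11 (AT2G18700), a class II trehalose phosphate synthase-like protein, had 1.69, 3.57 and 1.77 FPKM at 18 h, against 6.58, 8.22 and 5.71 FPKM at 9 h (-1.26, SE 0.20, adjusted p = 8.52e-04). In these genes no 18 h library reached a 9 h library. TPS8 fell by 1.05, DIN10 by 1.14, and BZIP1, a transcription factor of the low-energy response, by 0.92. DIN4, of branched-chain amino acid breakdown, and glutamate dehydrogenase GDH1 fell by 0.52 and 0.57. The other enzymes of that breakdown, MCCA, MCCB and IVD, did not pass the test (-0.11, -0.29 and -0.10). Proline dehydrogenase PRODH1 had 19.6, 12.9 and 9.79 FPKM at 18 h, against 9.77, 9.3 and 5.07 FPKM at 9 h, and its rise (0.73, adjusted p = 0.0488) lost its call under 13 of the alternatives, with an adjusted p of up to 0.188. ATG8E had 8.39, 10.3 and 13.1 FPKM at 18 h, against 27.3, 26.2 and 16.9 FPKM at 9 h (-1.07, SE 0.24, adjusted p = 0.00805), and the other ATG8 genes lay between -0.20 and 0.33.

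Starch metabolism changed by gene rather than as a block. Of 17 starch synthesis genes 7 were higher and 4 lower (median -0.0062, with a sign that varied among the alternatives), and of 19 starch breakdown genes 6 were higher and 10 lower (median -0.49). GBSS1 (AT1G32900), the granule-bound synthase that makes amylose, had 39.3, 28.7 and 27.1 FPKM at 18 h, against 2.41, 1.74 and 1.03 FPKM at 9 h (log2 fold change 3.6, SE 0.27, adjusted p = 3.15e-06). APL3 (AT4G39210), a large subunit of ADP-glucose pyrophosphorylase known to respond to sugar, had 41.7, 37.3 and 37.1 FPKM at 18 h, against 12, 13.7 and 14 FPKM at 9 h (1.48, SE 0.13, adjusted p = 9.46e-06), whereas the main leaf subunit APL1 had 95, 78.1 and 93.7 FPKM at 18 h, against 83.6, 86.6 and 101 FPKM at 9 h and did not pass the test. The starch synthase SS2 rose by 0.92, and the branching enzymes went opposite ways, SBE2.2 at 0.56 and SBE2.1 at -1.07. SS1 and SS4, which builds the granule's start, fell by 0.52 and 0.45.

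Of the breakdown genes, AMY3 (AT1G69830), a plastid alpha-amylase, had 18.7, 24.2 and 28.5 FPKM at 18 h, against 113, 119.8 and 121 FPKM at 9 h (-2.28, SE 0.15, adjusted p = 1.30e-06). DPE1 (AT5G64860), which recycles maltotriose, had 19, 19.6 and 19.4 FPKM at 18 h, against 50.7, 54.2 and 53.7 FPKM at 9 h (-1.41, SE 0.089, adjusted p = 8.97e-07), with little spread at either time. GWD1 (AT1G10760), the glucan water dikinase that opens the granule for attack, had 67.6, 59.3 and 49.4 FPKM at 18 h, against 132, 138 and 174 FPKM at 9 h (-1.32, SE 0.15, adjusted p = 6.67e-05). The phosphorylases PHS1 and PHS2 fell by 1.1 and 1.21, ISA3 by 1.07 and PWD by 0.90. Of the beta-amylases, BAM1, BAM2, BAM3, BAM5 and BAM9 rose, and BAM4 did not pass the test (-0.15, adjusted p = 0.44). BAM3 (AT4G17090), the main one of leaf starch at night, had 540.5, 547 and 402 FPKM at 18 h, against 166, 164 and 224 FPKM at 9 h (1.43, SE 0.18, adjusted p = 1.24e-04), with 25.2% of its exonic sequence overlapped by 2 genes on the other strand. BAM9, a regulator without known activity, rose by 1.67, and the cytosolic BAM5 had 30.0, 28.2 and 3.75 FPKM at 18 h, against 0.977, 2.44 and 1.43 FPKM at 9 h. BAM5 was called (2.67, SE 0.70, adjusted p = 0.0163), but its replicate 3 at 18 h was far below the others, and the call was lost without replicate 1 or 2 at 18 h or replicate 1 at 9 h (adjusted p up to 0.0699). Without replicate 2 at 18 h the count of higher breakdown genes was 3.

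Sucrose synthesis and sugar transport held 5 higher and 6 lower genes of 22 tested (median -0.099, but -0.030 without replicate 1 at 9 h and -0.060 without replicate 3 at 18 h). SPS4F and SPP2, of the last steps to sucrose, rose by 0.88 and 0.80, and the H+/sucrose carrier SUC1 had 68.3, 60.2 and 49.4 FPKM at 18 h, against 35.3, 33.1 and 30.7 FPKM at 9 h (0.82, SE 0.10, adjusted p = 1.64e-04). Cytosolic fructose bisphosphatase FBP fell by 0.65, the phloem-loading exporters SWEET11 and SWEET12 by 0.66 and 0.63, and the hexose carrier STP1 by 0.76. STP13, another hexose carrier, had 4.7, 10.7 and 2.59 FPKM at 18 h, against 11.5, 17.7 and 14.5 FPKM at 9 h (-1.3, SE 0.38, adjusted p = 0.0271), a call lost in 5 of the alternatives, with an adjusted p of up to 0.0882. SUC2, the main carrier of phloem loading, fell by 0.35 (adjusted p = 0.0361), and SPS1F did not pass the test (0.016, adjusted p = 0.922).

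Of 11 translocators of the plastid envelope and thylakoid, TPT among them, 3 were higher and 2 lower (median 0.10). The median was 0.064, 0.21 and 0.038 without replicate 1, 2 and 3 at 18 h. GPT2 (AT1G61800), a glucose 6-phosphate/phosphate translocator, had 18.5, 10.3 and 9.57 FPKM at 18 h, against 2.15, 1.38 and 2.16 FPKM at 9 h (2.21, SE 0.31, adjusted p = 3.75e-04), so that the lowest 18 h library was above every 9 h library. PPT2, a phosphoenolpyruvate translocator, had 32.6, 27.6 and 27.8 FPKM at 18 h, against 8.39, 12.3 and 6.77 FPKM at 9 h (1.61, SE 0.15, adjusted p = 1.71e-05), and the phosphate carrier PHT2;1 rose by 0.96. The thylakoid phosphate transporter PHT4;1 had 15.7, 19.1 and 22 FPKM at 18 h, against 54.8, 63.4 and 56.2 FPKM at 9 h (-1.58, SE 0.13, adjusted p = 7.00e-06), and the ATP/ADP carrier NTT2 fell by 0.58. GPT1, XPT, PPT1 and the glucose exporter PGLCT did not pass the test, with log2 fold changes between -0.20 and 0.18.

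Light-harvesting antenna transcripts were lower at 18 h in 10 of 19 tested genes and higher in 1 (median -0.68). LHCB1.4 had 28.2, 53.8 and 69.7 FPKM at 18 h, against 516, 324 and 224 FPKM at 9 h, LHCB1.2 had 189, 318 and 303 FPKM at 18 h, against 1814, 1639 and 1348 FPKM at 9 h and LHCB1.1 had 102, 184 and 188 FPKM at 18 h, against 712, 705 and 779 FPKM at 9 h (log2 fold changes -2.8, -2.59 and -2.25). The LHCB1 genes are near-identical copies, so their shares are uncertain. Summed over 5 genes, LHCB1 had 3616, 4136 and 4971 FPKM at 18 h, against 11670.0, 11457 and 11120.0 FPKM at 9 h. Of these 5, LHCB1.5 was listed at or near 0 in all tpt-2 libraries, so the sum rests on the others. LHCB2.1, LHCB2.2 and LHCB3 fell, and so did LHCA1, LHCA3 and LHCA4 of photosystem I, LHCA1 by 1.85. The monomeric antenna genes LHCB4.1, LHCB4.2, LHCB5 and LHCB6 did not pass the test, with log2 fold changes between -0.41 and -0.14. LHCB4.3 (AT2G40100), a form of that antenna linked to strong light, had 341, 269.7 and 325 FPKM at 18 h, against 17, 23.6 and 33.1 FPKM at 9 h (3.66, SE 0.26, adjusted p = 2.12e-06).

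Carbon fixation genes changed by small amounts. Of 21 Calvin cycle genes 8 were higher and 2 lower (median 0.12), and of 12 tested photorespiration genes 6 were higher and 0 lower (median 0.23). The lower share of the Calvin cycle list, 9.52%, was close to the 11.3% of all tested genes. RCA (AT2G39730), which reactivates Rubisco, had 4795, 4611 and 5790.2 FPKM at 18 h, against 3472, 3699 and 2561 FPKM at 9 h (0.65, SE 0.15, adjusted p = 0.00893). FBA1, an aldolase, rose by 0.53 and the triose phosphate isomerase TPI by 0.44, while transketolase TKL1 had 884, 847 and 1027 FPKM at 18 h, against 1121, 1184 and 1132 FPKM at 9 h (-0.32, SE 0.08, adjusted p = 0.0128). CP12-3, a minor form of the regulator CP12, fell by 0.68. The calls of TKL1 and CP12-3 were each lost in 3 of the alternatives (adjusted p up to 0.0554 and 0.0802). The Calvin cycle counts depend on single libraries: 5 genes were higher without replicate 1 at 9 h and 4 without replicate 3 at 9 h, the median was 0.062 without replicate 3 at 18 h and 0.079 without replicate 3 at 9 h, and the lower count was 0 without replicate 1 at 18 h and 1 without replicate 2 at 18 h, replicate 2 at 9 h or replicate 3 at 9 h. In photorespiration, glycine decarboxylase GLDP2 had 225, 207 and 241 FPKM at 18 h, against 129.8, 128 and 103 FPKM at 9 h (0.90, SE 0.099, adjusted p = 4.99e-05), the aminotransferase GGT1 rose by 0.59, and glycolate oxidase GOX1 by 0.43 (adjusted p = 0.0125, and 0.052 without replicate 3 at 9 h).

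Of 15 tested chlorophyll synthesis genes 4 were higher and 4 lower (median 0.0025, with a sign that varied among the alternatives). CRD1, of the ring-closing cyclase, had 620.2, 571 and 707 FPKM at 18 h, against 388, 434 and 298 FPKM at 9 h (0.77, SE 0.13, adjusted p = 0.00142), and HEMA1, of the first regulated step, rose by 0.44. The protochlorophyllide reductase PORB had 202, 199 and 259 FPKM at 18 h, against 602, 612 and 564 FPKM at 9 h (-1.44, SE 0.12, adjusted p = 6.55e-06), and the chelatase subunit CHLI2 fell by 0.59. Among 19 tested high-light and oxidative stress genes 6 were higher and 3 lower (median 0.37). ELIP1 (AT3G22840), an early light-induced protein, had 306, 361 and 176 FPKM at 18 h, against 32.7, 52.7 and 86.6 FPKM at 9 h (2.32, SE 0.39, adjusted p = 0.00126). Its replicate 3 was the lowest at 18 h and the highest at 9 h. Catalases split, CAT2 at 664, 750.4 and 715 FPKM at 18 h, against 130.4, 177 and 91 FPKM at 9 h (2.46, SE 0.20, adjusted p = 5.73e-06) and CAT3 at 316, 376 and 421 FPKM at 18 h, against 989, 1063 and 846 FPKM at 9 h (-1.38, SE 0.19, adjusted p = 2.75e-04). PSBS, of non-photochemical quenching, rose by 0.53. Iron superoxide dismutase FSD1 had 511, 641 and 806 FPKM at 18 h, against 222, 358 and 546 FPKM at 9 h, overlapping groups, and its call (0.87, adjusted p = 0.0295) was lost in 6 of the alternatives. Its log2 fold change was 0.54 without replicate 1 at 9 h. The oxidative stress markers ZAT10, ZAT12 and BAP1 did not pass the test (0.90, 0.41 and 0.12), and replicate 3 was the lowest of them at 18 h. The list median was 0.23 without replicate 2 at 18 h and 0.19 without replicate 1 at 9 h.

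Nitrate assimilation rose almost as a whole. Of 8 tested nitrogen genes 7 were higher and 0 lower (median 0.71). NIA2 (AT1G37130), the main nitrate reductase, had 346, 421 and 379.7 FPKM at 18 h, against 89.6, 78.6 and 79.6 FPKM at 9 h (2.2, SE 0.10, adjusted p = 1.30e-07), and NIA1 had 33.1, 47.7 and 28 FPKM at 18 h, against 7.99, 6.9 and 10.0 FPKM at 9 h (1.98, SE 0.19, adjusted p = 1.45e-05). The nitrate transporter NRT1.1 rose by 1.0, nitrite reductase NIR1 by 0.65, the plastid glutamine synthetase GLN2 by 0.65, the glutamate synthase GLU1 by 0.66 and asparagine synthetase ASN2 by 0.75. GLN1;1, the cytosolic glutamine synthetase, had 47.1, 36.8 and 38.2 FPKM at 18 h, against 48.5, 43.1 and 62.8 FPKM at 9 h and did not pass the test, though it was lower without replicate 1 at 18 h or replicate 2 at 9 h.

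Of 12 tested phosphate starvation genes 5 were higher and 0 lower (median 0.32). The phosphatase PS2 had 5.85, 4.4 and 5.35 FPKM at 18 h, against 0.482, 1.18 and 2.03 FPKM at 9 h (1.53, SE 0.27, adjusted p = 0.00156), the acid phosphatase PAP17 had 34.6, 38.2 and 34.9 FPKM at 18 h, against 15, 17.2 and 22.7 FPKM at 9 h (0.95, SE 0.13, adjusted p = 2.53e-04), and PHO1;H1, of the phosphate exporter family, rose by 0.81, a call lost in 4 of the alternatives (adjusted p up to 0.074). The count was 3 without replicate 1 or 3 at 18 h and 2 without replicate 2 at 18 h, replicate 1 at 9 h or replicate 2 at 9 h, and the median was 0.49 without replicate 2 at 18 h and 0.60 without replicate 3 at 9 h. SPX1, a phosphate sensor gene, had 24.3, 19.9 and 27.2 FPKM at 18 h, against 22.6, 21.8 and 33.1 FPKM at 9 h and did not pass the test. Of 16 glucosinolate genes 4 were higher and 2 lower (median 0.12). The lower share, 12.5%, was close to the 11.3% of all tested genes. MYB29, a regulator of aliphatic glucosinolates, had 28.4, 34 and 31.7 FPKM at 18 h, against 22.5, 23.9 and 22 FPKM at 9 h (0.44, SE 0.074, adjusted p = 0.0012). CYP83B1, of the indolic branch, had 189.8, 201 and 98.3 FPKM at 18 h, against 90.2, 76.6 and 98.7 FPKM at 9 h, where replicate 3 at 18 h lay inside the 9 h range, and its call (0.81, adjusted p = 0.0359) was lost in 9 of the alternatives. SOT16, of the same branch, rose by 0.74, BCAT4, of chain elongation, by 0.41, while CYP79F1 and MAM1 fell by 0.28 and 0.21. The calls of CYP79F1 and MAM1 were lost in 5 and 17 of the alternatives, with adjusted p of up to 0.0827 and 0.155, and that of SOT16 without replicate 1 or 2 at 18 h (adjusted p up to 0.0603). Without replicate 1 or 2 at 18 h, 2 glucosinolate genes were higher, and the lower count was 0 without replicate 1 or 3 at 18 h or replicate 2 or 3 at 9 h, 1 without replicate 1 at 9 h and 1 without any one Col-0 library other than replicate 3 at 9 h. The list median was 0.057 without replicate 2 at 18 h and 0.062 without replicate 2 at 9 h.

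Jasmonate genes were higher at 18 h in 5 of 9 tested cases (median 1.51), with replicate 3 at 18 h far from the other replicates. LOX2 (AT3G45140), the plastid lipoxygenase that opens jasmonate synthesis, had 2151, 2179 and 899 FPKM at 18 h, against 423, 462 and 473 FPKM at 9 h (1.83, SE 0.38, adjusted p = 0.00465). AOS, the next enzyme, had 673, 697 and 235 FPKM at 18 h, against 169, 149.8 and 155 FPKM at 9 h (1.6, SE 0.38, adjusted p = 0.0103), and AOC2, an allene oxide cyclase, had 1143, 1164 and 389.7 FPKM at 18 h, against 273, 330.0 and 296 FPKM at 9 h (1.43, SE 0.39, adjusted p = 0.0192). In each of them replicate 3 at 18 h was far below the other 18 h libraries and still above the 9 h libraries. VSP1, a storage protein that jasmonate induces, had 242, 347 and 164 FPKM at 18 h, against 28.4, 51.7 and 38.4 FPKM at 9 h (2.61, SE 0.61, adjusted p = 0.00931), and its neighbour copy VSP2 had 511, 709 and 191 FPKM at 18 h, against 79.8, 202 and 67.7 FPKM at 9 h (1.99, SE 0.66, adjusted p = 0.0489). The groups of VSP2 overlapped, and its call was lost in 11 of the alternatives, with an adjusted p of up to 0.165. AOC1, OPR3 and JAZ1 did not pass the test (1.51, 0.95 and 1.19), and JAZ1 had 32.9, 37.5 and 9.9 FPKM at 18 h, against 7.13, 10.1 and 12.2 FPKM at 9 h. The median difference of the list from the 9 h mean was 2.09 and 2.14 in replicates 1 and 2 at 18 h and 0.383 in replicate 3. Without replicate 3 at 18 h, 8 genes were higher (median 2.11), and 8 were higher without replicate 3 of Col-0 at 9 h, which shares in the estimate of the spread. Without replicate 1 or 2 at 18 h, or replicate 1 or 3 at 9 h, 3 were higher.

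Of 10 salicylate defence genes 1 was higher and 0 lower (median 0.33), a share close to the 12% of all tested genes. This was EDS1 (AT3G48090), a hub of immune signalling, with 15.8, 12.3 and 10.4 FPKM at 18 h, against 9.04, 8.06 and 8.95 FPKM at 9 h (0.50, SE 0.15, adjusted p = 0.0323), and its call was lost in 7 of the alternatives, with an adjusted p of up to 0.129. PR2, a glucanase that salicylate induces, had 65, 71.6 and 17.5 FPKM at 18 h, against 19.3, 4.47 and 11.7 FPKM at 9 h and did not pass the test (adjusted p = 0.0903). WRKY70 had 82, 53.6 and 23.3 FPKM at 18 h, against 43.9, 42 and 31.6 FPKM at 9 h, so that replicate 3 at 18 h was below all 9 h libraries. PR1 and PR5 had log2 fold changes of 0.59 and -0.50. The list's median difference from the 9 h mean was 0.772, 0.322 and -0.146 in replicates 1, 2 and 3 at 18 h. Without replicate 3 at 18 h, 5 of these genes were higher (median 0.64), without replicate 1 or 2 at 18 h or any one 9 h library 0 were (median 0.07 without replicate 1 at 18 h), and without replicate 1 of Col-0 at 9 h 2 were.

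**Figure D4:**
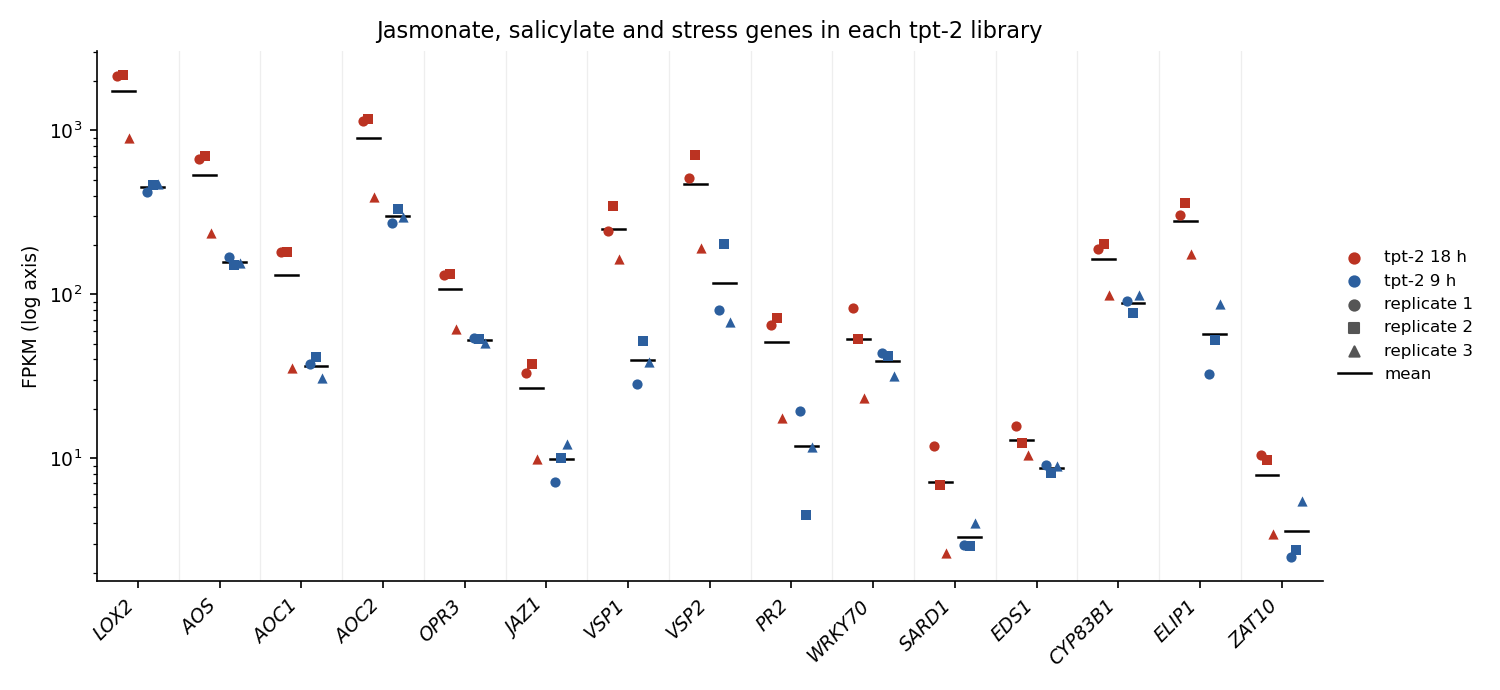
FPKM (log axis) of jasmonate, salicylate, glucosinolate and high-light genes in each tpt-2 library, with 18 h (red) left of 9 h (blue), a marker shape per replicate and bars at the means. The triangle, replicate 3, is the lowest 18 h library for LOX2, AOS, JAZ1, WRKY70 and ELIP1, for LOX2 at 899 FPKM beside 2151 and 2179.

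The largest changes over all nuclear genes lay mostly in the groups above. Among genes whose libraries did not overlap, the 6 largest rises were CSLA01, F3'H, DFR, LDOX, UGT75C1 and RVE8. CSLA01 (AT4G16590), a glucomannan synthase-like gene, had 131, 149.7 and 53.1 FPKM at 18 h, against 0.727, 0.228 and 1.07 FPKM at 9 h (5.97, SE 0.59, adjusted p = 2.14e-05), and its replicate 3 was the lowest 18 h library. The 6 largest falls were DRM2, AT5G62360, AT1G71000, PIF4, GI and GRP7. AT5G62360, annotated as a member of the plant invertase/pectin methylesterase inhibitor superfamily, had 6.92, 3.55 and 2.66 FPKM at 18 h, against 53.3, 61 and 75.8 FPKM at 9 h (-3.65, SE 0.27, adjusted p = 3.21e-06). AT1G71000, annotated with a DnaJ chaperone domain, had 0, 0.149 and 0.595 FPKM at 18 h, against 13.8, 17.1 and 11.7 FPKM at 9 h (-3.62, SE 0.19, adjusted p = 2.84e-07). It was at or near 0 in every 18 h library.

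The same contrast in Col-0 called 5023 genes (28.4%), 2298 higher and 2725 lower at 18 h. Of the tpt-2 calls 56.8% were also called in Col-0, and these 2341 shared calls made up 46.6% of the Col-0 calls, 2246 of them in the same direction and 95 opposite. The difference between the contrasts, tpt-2 minus Col-0, was tested for each gene as an interaction. It was called for 835 genes (4.72%), 426 positive (2.41%) and 409 negative (2.31%), and with quantile normalization for 317 positive and 463 negative. Of the 4122 tpt-2 calls, 496 (12%) had a called difference. Among the 835 genes, 533 had log2 fold changes of opposite sign in the genotypes. The count varied with single libraries, from 253 without replicate 2 of Col-0 at 18 h to 1176 without replicate 3 of tpt-2 at 18 h. Single genes whose call held in every alternative that tested them are therefore given first.

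Most late anthocyanin genes rose by a larger fold in tpt-2 than in Col-0, which does not mean a larger rise in FPKM. Of the 12 late anthocyanin genes 10 had a positive called difference, with medians of 3.62 in tpt-2 and 1.51 in Col-0, and 9 to 11 had one when any single library was left out. In all 12 genes the mean level in tpt-2 was below that in Col-0 at both times, which was not tested. DFR, for which the tpt-2 values are given above, had 577, 610.1 and 654 FPKM at 18 h, against 177, 165 and 199.8 FPKM at 9 h in Col-0, a difference of 3.04 (SE 0.32, adjusted p = 0.00114). LDOX had 577, 584 and 659.9 FPKM at 18 h, against 184, 175 and 206 FPKM at 9 h in Col-0 and a difference of 2.72 (SE 0.24, adjusted p = 0.001), and F3'H a difference of 2.35 (SE 0.38, adjusted p = 0.00845). UGT75C1 and PAP1 had differences of 2.39 (SE 0.26, adjusted p = 0.00148) and 2.02 (SE 0.26, adjusted p = 0.0033). PAP1 in Col-0 had 124, 138 and 138 FPKM at 18 h, against 75, 101 and 95 FPKM at 9 h. For CHS the difference did not pass the test (1.38, SE 0.37, adjusted p = 0.0559).

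Other genes with differences that held in every alternative that tested them came from starch, phosphate and sugar genes. BAM3 in Col-0 had 415, 466 and 384 FPKM at 18 h, against 427, 569 and 365 FPKM at 9 h, a log2 fold change of -0.085 against 1.43 in tpt-2, and the difference was 1.51 (SE 0.25, adjusted p = 0.00909). APL3 had 48, 59.4 and 47.1 FPKM at 18 h, against 42.1, 59.2 and 43.3 FPKM at 9 h in Col-0, and its difference was 1.38 (SE 0.18, adjusted p = 0.0033). PAP17 differed by 1.11 (SE 0.18, adjusted p = 0.0088), with 47, 46.5 and 40.4 FPKM at 18 h, against 46.9, 55.7 and 47.6 FPKM at 9 h in Col-0. TPS11 and SS4 had negative differences of -1.62 (SE 0.29, adjusted p = 0.0128) and -0.64 (SE 0.11, adjusted p = 0.00989). TPS11 had 2.22, 3.11 and 2.41 FPKM at 18 h, against 1.51, 1.92 and 1.94 FPKM at 9 h in Col-0.

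The 4 largest positive differences of all nuclear genes were those of DFR, AT3G47342, AT1G80130 and TBL26, and the 4 largest negative ones those of AT5G56100, AT1G23390, DRM2 and STP14. AT1G80130, annotated as a tetratricopeptide repeat-like protein, had 27.8, 24.4 and 13.7 FPKM at 18 h, against 2.46, 1.52 and 1.08 FPKM at 9 h in tpt-2 and 21, 20.6 and 19.2 FPKM at 18 h, against 17.6, 23.7 and 12.7 FPKM at 9 h in Col-0, a difference of 2.87 (SE 0.38, adjusted p = 0.0033). TBL26, of a family of wall polysaccharide acetyltransferases, had 170.1, 174 and 72.1 FPKM at 18 h, against 10.5, 8.98 and 10.9 FPKM at 9 h in tpt-2 and 129.7, 119 and 117 FPKM at 18 h, against 55.6, 53.4 and 121 FPKM at 9 h in Col-0 (2.79, SE 0.47, adjusted p = 0.0104). For both, every tpt-2 value at 9 h stood below every value of the other 3 groups. AT1G23390, an F-box protein with Kelch repeats, had 3.09, 7.06 and 4.07 FPKM at 18 h, against 37.2, 42 and 24.2 FPKM at 9 h in tpt-2 and 5.33, 4.65 and 4.59 FPKM at 18 h, against 4.93, 4.93 and 5.7 FPKM at 9 h in Col-0 (-2.57, SE 0.33, adjusted p = 0.00287). AT5G56100 had 0.698, 1.67 and 1.83 FPKM at 18 h, against 10.4, 11 and 11.7 FPKM at 9 h in tpt-2 and 1.75, 3.64 and 3.63 FPKM at 18 h, against 3.27, 1.21 and 2.01 FPKM at 9 h in Col-0 (-2.71, SE 0.38, adjusted p = 0.00445). Here the tpt-2 values at 9 h stood above the other 3 groups. STP14, a hexose carrier, went opposite ways, with 3.88, 2.82 and 5.74 FPKM at 18 h, against 11.8, 10.9 and 7.64 FPKM at 9 h in tpt-2 and 10.3, 10.7 and 10.1 FPKM at 18 h, against 4.36, 2.56 and 3.88 FPKM at 9 h in Col-0 (-2.46, SE 0.30, adjusted p = 0.00235). DRM2 had 2.35, 3.59 and 2.33 FPKM at 18 h, against 59.7, 50.6 and 30.0 FPKM at 9 h in Col-0, and its difference (-2.5, SE 0.56, adjusted p = 0.0291) lost its call in 7 of the alternatives, with an adjusted p of up to 0.0798. AT3G47342 is a small nucleolar RNA, and its difference was 2.93 (SE 0.46, adjusted p = 0.00773). It ranged from 2.65 to 3.83 among the alternatives that tested the gene. The mean of AT3G47342 over the tpt-2 libraries was under 5 FPKM. The libraries were made with poly-T beads, so the values of this RNA also depend on what passed that selection.

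**Figure D5:**
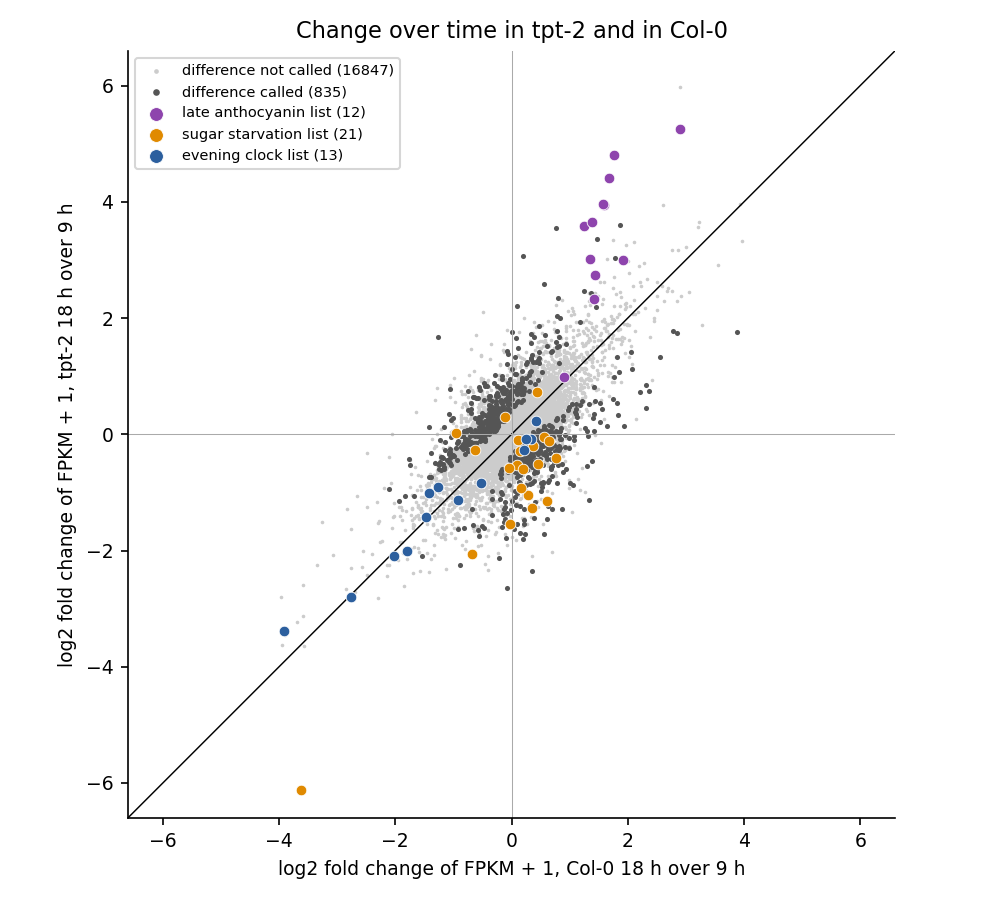
Each point is a gene, placed by its log2 fold change of FPKM + 1 at 18 h over 9 h in tpt-2 (vertical) and in Col-0 (horizontal), with the 835 called differences in dark grey, 3 lists in colour and a diagonal of equal change. Most late anthocyanin genes lie above the diagonal (10 of 12 called) and the sugar starvation genes mostly below it (6 of 21 called), while evening clock genes lie near it.

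In the clock lists, negative differences were called for 2 of 11 morning and 2 of 13 evening genes and positive ones for 0 of either list, where 2.31% of all tested genes had a negative and 2.41% a positive one. The median log2 fold changes were 0.82 in tpt-2 and 1.19 in Col-0 for the morning list and -1.01 in tpt-2 and -1.26 in Col-0 for the evening list. The evening count was 0 without replicate 1 or 2 of tpt-2 at either time, replicate 1 of Col-0 at 18 h or replicate 2 of Col-0 at 9 h, with a replicate block and without the trend, and 1 without any one of the other libraries. The morning count was 3 without replicate 3 of tpt-2 at 9 h, and 1 without any one of the other libraries except replicate 1 of Col-0 at 9 h. RVE1 had a difference of -1.0 (SE 0.25, adjusted p = 0.0413), which lost its call in 14 of the alternatives, and RVE8 one of 0.026 (SE 0.28, adjusted p = 0.973). In the sugar starvation list 6 differences were called, all negative (medians -0.51 in tpt-2 and 0.17 in Col-0). That count was 1 without replicate 1 or 2 of Col-0 at 18 h, 2 without replicate 1 of tpt-2 at 18 h or replicate 1 or 2 of tpt-2 at 9 h, and 3 without replicate 3 of Col-0 at 18 h or replicate 2 of Col-0 at 9 h. GPT2 differed by 2.11 (SE 0.44, adjusted p = 0.0243), with 34.1, 49.3 and 43.8 FPKM at 18 h, against 21.9, 50.7 and 53.1 FPKM at 9 h in Col-0, GBSS1 by 1.73 (SE 0.38, adjusted p = 0.0285), and NIA2 by 0.75 (SE 0.14, adjusted p = 0.0177), calls lost in 6, 9 and 2 of the alternatives.

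Of 105 chloroplast-encoded members 9 were lower (8.57%, where 11.3% of all tested genes were) and 0 higher at 18 h (median -1.02). Of 16 mitochondrion-encoded members limma called 0 (median 0.22), though it called 2 higher in the 6 tpt-2 libraries fitted alone and 1 higher without replicate 2 or 3 of Col-0 at 9 h. At an unadjusted p under 0.05 there was 1, ATMG01370 (log2 fold change 0.44, adjusted p = 0.0824). The median of the 16 was 0.11 and 0.075 without replicate 1 and 2 at 18 h and 0.12 without replicate 1 at 9 h. These RNAs mostly lack poly(A) tails, and the libraries were made with poly-T beads, so their values depend on what passed that selection. The chloroplast-encoded loci summed to 3178, 4554 and 2307 FPKM at 18 h, against 4168, 4082 and 22528 FPKM at 9 h. Replicate 3 at 9 h was thus far above every other library. Without it the median was -0.31, with 6 loci lower and 1 higher. The count of lower loci was 2 without replicate 1 or 3 at 18 h, 14 without replicate 2 at 18 h, and 23 and 22 without replicate 1 and 2 at 9 h. With the 6 tpt-2 libraries fitted alone it was 0, and with a pseudocount of 0.1 it was 4. The Col-0 libraries, with far lower shares of these loci, also enter the main fit's estimate of the spread. ATCG01190, called lower, had 1.1, 0 and 1.05 FPKM at 18 h, against 2.13, 2.84 and 13.4 FPKM at 9 h. Its mean at 18 h was 0.717 FPKM, so it passed the 1 FPKM limit only through its 9 h values. It was 0 in every Col-0 library, and those libraries therefore add no spread to its estimate.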

How the data were processed

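Leaf RNA of tpt-2 and Col-0 was sequenced after poly-T bead selection as strand-marked libraries, per the labels' protocols. The authors deposited 1 table of FPKM values per gene and library. The submitters' processing notes name CASAVA, HISAT2 2.0.5, featureCounts 1.5.0-p3 and DESeq2 1.20.0 and the build TAIR10, and whether counting used strand is not given in the sources used here. All 32833 loci were read, with 0 value columns left unused. Names and lengths came from RefSeq TAIR10.1 by locus ID (32548 matched, the 285 organelle loci not).

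FPKM are not counts, so tests used limma 3.58.1 (R 4.3.3) with a trended prior on log2(FPKM + 1), which understates the change of low genes. One fit of 4 groups over all 12 libraries covered the 17682 members. Its contrasts were 18 h against 9 h in tpt-2, the same in Col-0, and their difference, with Benjamini-Hochberg adjusted p under 0.05 over all members as the call. Values are FPKM, and fold changes and standard errors (SE) are on the log2(FPKM + 1) scale. Dividing low FPKM by the value of 1 fragment gave whole numbers within 0.05 for 98.1% to 98.4% of values in tpt-2, and hence depth. Fragment numbers and the floor of 3 fragments cover counting error only. The labels call the replicates biological but do not say that they came from separate plants. Deviations from the group means of same-numbered tpt-2 samples had correlations of -0.0757, 0.114 and -0.132, and those of other pairs -0.164 to 0.21. Replicate numbers were therefore not used to pair the samples. With 3 libraries per group, whose deviations sum to 0, this check cannot exclude a pairing.

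The genes and lists were chosen with earlier results of these data known. Named genes are, per list, up to 3 called members of largest change in each direction, or the largest change where none was called, the 6 largest rises and falls with libraries that did not overlap, the 4 largest differences in each direction, TPT, and genes beside the 1 FPKM limit. Further list members are given with their values. Promoter windows of 250 bases were read from RefSeq TAIR10.1. Alternatives were a pseudocount of 0.1, no filter, a mean of at least 5 FPKM, quantile and median-ratio scaling, no trend and nuclear genes only. Others were the 6 tpt-2 libraries alone, a replicate block, leaving out each library and, for counts of genes only, a 2-fold minimum. Python 3.11.15 with numpy 2.4.6, pandas 2.3.3 and scipy 1.17.1 was used for the rest.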

Additional observations from a re-analysis of the deposited data

Results flagged for a closer look

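The change at 18 h against 9 h differed between tpt-2 and Col-0 by the interaction test of limma (adjusted p under 0.05) for 30 of the single genes named. Over all tested genes it did so for 835 (4.72%). Genes were named partly for the size of their changes and differences, so the count of 30 depends on that choice. Values are the log2 fold change in tpt-2 minus that in Col-0. Among flavonoid genes the difference was 3.04 for DFR, 2.72 for LDOX, 2.39 for UGT75C1, 2.35 for F3'H, 2.02 for PAP1 and 1.25 for TT8. Among starch, sugar transport and translocator genes it was 2.11 for GPT2, 1.73 for GBSS1, 1.51 for BAM3, 1.38 for APL3, 0.63 for SUC1 and 0.60 for SBE2.1. It was 1.11 for PAP17, 0.75 for NIA2 and 0.53 for MYB29, and outside the lists 2.93 for AT3G47342, 2.87 for AT1G80130 and 2.79 for TBL26.

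The negative differences were -2.5 for DRM2, -1.62 for TPS11, -1.39 for ATG8E and -1.38 for DYL1 among starvation genes, and -1.0 for RVE1, -0.65 for CHLI2, -0.64 for SS4, -0.53 for GSA2 and -0.48 for TKL1 in the clock, starch, Calvin cycle and chlorophyll lists. Outside the lists they were -2.71 for AT5G56100, -2.57 for AT1G23390 and -2.46 for STP14. The calls of DFR, LDOX, F3'H, UGT75C1, PAP1, APL3, BAM3, SS4, PAP17, TPS11, AT3G47342, AT1G80130, TBL26, AT5G56100, AT1G23390 and STP14 held under every alternative that tested the gene. TPS11 and AT3G47342 were not tested with a mean of at least 5 FPKM. The 2-fold minimum was applied to counts of genes, not to single genes.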

How the results depend on the processing

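Under every alternative the 4122 genes changed in tpt-2 stayed within 1.5 times that count (2976 to 4328 when 1 library was left out, 3672 with a replicate block), apart from the 843 that also changed at least 2-fold, 496 higher and 347 lower. With 1 library left out the higher genes numbered 1561 to 2271 and the lower 1367 to 2111. The 835 differences between genotypes moved more. Leaving out 1 library gave 253 to 1176 (124 to 665 positive, 129 to 511 negative). The libraries that moved the count over 1.5 times were replicates 1, 2 and 3 of Col-0 at 18 h (290, 253 and 509), replicate 2 of Col-0 at 9 h (525), replicates 1 and 2 of tpt-2 at 18 h (281 and 479) and replicates 1 and 2 of tpt-2 at 9 h (465 and 296). With a replicate block 392 were called (192 positive, 200 negative), without the trend 550 (264 and 286), and at least 2-fold 191 (72 and 119). Quantile normalization gave 780 (317 positive, 463 negative). The cause was not tested. The fit of the 6 tpt-2 libraries alone called 3406.

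Of 2855 values of single genes over 21 settings, 2613 kept direction and call, 240 lost the call, 1 gained it and 1 changed sign, TPT, which ranged over -0.156 to 0.0745 with 1 library left out and was positive without replicate 3 of tpt-2 at 9 h. Of 502 list medians under alternatives, 19 moved by more than the spread. The replicate numbers were used only as names in the main fit, and the blocked values are a check.

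Depth limits genes near 1 FPKM, and the 1 FPKM pseudocount understates their folds. Each group has 3 libraries.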

Other observations

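Several genes of the lists lay under the 1 FPKM limit and were not tested. PRR9, a morning clock repressor, rested on 5 fragments summed over the 18 h libraries and 100 over the 9 h libraries of tpt-2, and PORA, a protochlorophyllide reductase, on 1 and 81. ASN1, a starvation-induced asparagine synthetase, had 0.0361, 2.1 and 0.138 FPKM at 18 h, against 0.629, 1.09 and 0.337 FPKM at 9 h, and BGLU30 had 0.037, 5.63 and 0 FPKM at 18 h, against 0, 0.223 and 0.0346 FPKM at 9 h, in both cases with the highest 18 h value in replicate 2. NRT2.1, a high-affinity nitrate transporter, had 0.386, 0.959 and 0.553 FPKM at 18 h, against 0.373, 0.332 and 0.396 FPKM at 9 h. The phosphate transporter PHT1;1 had 0.283, 2.01 and 0.309 FPKM at 18 h, against 1.18, 0.626 and 0.302 FPKM at 9 h.

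F3H, UGT89C1, LHCB1.5, MYC2 and GUN4 were listed at or near 0 in all 6 tpt-2 libraries. Of their exon bases, 93.8%, 99.6%, 100%, 98.5% and 73.0% lie under exons annotated on the other strand in RefSeq TAIR10.1. The part of this overlap in their values was not tested. APX2 was also listed at 0 in all 6 libraries.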
